A study of Mus musculus with 12 samples.

Results

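Accessible chromatin at the mouse gene Zmynd8 was examined start site by start site, because 1 of its internal promoters was far more accessible in mouse embryonic stem cells (mESCs) than in mouse embryonic fibroblasts (MEFs), whereas several of its other starts were not. The GENCODE M21 annotation places Zmynd8 on the minus strand at chr2:165784152-165899016 (GRCm38), a gene body of 114865 bp. Every ATAC-seq peak overlapping that body or the 20 kb on either side was a member, which gave 45 of 91354 peaks in the set built from BGI data and 44 of 87027 peaks in the set built from Illumina data. The locus was selected for the mESC against MEF difference at the internal promoter. The mESC against MEF values of its peaks are therefore a description. Where peaks past a threshold are counted in that contrast, the share of all peaks stands beside the first count and nothing is read from it.

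Omni-ATAC-seq marks open DNA by the adapters that a Tn5 transposase cuts into it. The cells were of a C57/Bl6 background, MEFs sorted as THY1+ and mESCs sorted as THY1-/SSEA1+/EPCAM+. There were 3 libraries per cell type (MEF replicates 1, 2 and 4, mESC replicates 1, 3 and 5). Both a DNBSEQ-G400 from BGI and a HiSeqX10 from Illumina read every library, giving 12 samples in 4 groups of 3, and the study asked whether the sequencer changes what ATAC-seq shows. The BGI and Illumina values below thus come from the same 6 libraries and are not independent of each other. Levels are given as counts-per-million values (CPM) over the reads in peaks, and 1 CPM stood for 15.9 to 21.7 reads, depending on the sample, on the peak set of its own platform. Promoters of marker genes were used to check the labels: 7 of 8 MEF marker genes were lower in mESCs on both platforms (not Pdgfra, log2 fold change 0.08 on BGI), and 7 of 8 mESC marker genes were higher (not Fut4, -0.67 on BGI). Among the strongest promoter peaks of all protein-coding genes, 44.1% were lower and 22.1% higher in mESCs on BGI, and 45.8% and 22.5% on Illumina.

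ZMYND8 is a nuclear chromatin reader. It carries a PHD finger, a bromodomain and a PWWP domain, which bind modified histone tails and DNA, and a MYND zinc finger that binds partner proteins. It has been described in complexes with histone demethylases of the KDM5 family and with the NuRD remodelling complex, and takes part in transcriptional control and in the response to DNA breaks. A gene with several promoters can produce transcripts with different first exons, and an ATAC-seq peak at a start shows that the DNA there is open, not which strand is transcribed or how much RNA is made.

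The annotation listed 21 Zmynd8 transcripts with 18 distinct starts. Starts within 500 bp of each other were merged into 10 start clusters, numbered here from 1 at the 5′ end of the gene to 10. By the rule set for this work, the canonical start was the most upstream one with a transcript of the basic set, which is start 2 at position 165896950. The annotation itself does not single out 1 canonical start: start 1 (165899016) belongs to 1 transcript outside the basic set with an incomplete 3′ end, start 3 (165884874 to 165884210) holds 7 transcripts, 3 of them coding, and start 9 (165858173) carries the transcript tagged as the principal coding isoform, of 1199 codons. The internal promoter is start 8, at position 165862005, which lies 34945 bp downstream of start 2 and 22869 bp downstream of the first base of start 3. It belongs to a single noncoding processed transcript of 4 exons with a first exon at chr2:165861885-165862005. Its second exon, at chr2:165852000-165852148, is shared by 13 of the 21 transcripts.

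The sequence at the internal start is shown first, because a short run of letters recurs in it, and a stretch at start 3, the start with the most transcripts, is shown beside it. Bases are given 5′ to 3′ on the minus strand, which reads like the transcript, from the RefSeq GRCm38.p6 reference, and capitals mark the letters ATTGG. The first run covers chr2:165861704-165862003, from the third base of the transcript, and the second covers chr2:165884875-165885088, just upstream of start 3.
Internal start 8: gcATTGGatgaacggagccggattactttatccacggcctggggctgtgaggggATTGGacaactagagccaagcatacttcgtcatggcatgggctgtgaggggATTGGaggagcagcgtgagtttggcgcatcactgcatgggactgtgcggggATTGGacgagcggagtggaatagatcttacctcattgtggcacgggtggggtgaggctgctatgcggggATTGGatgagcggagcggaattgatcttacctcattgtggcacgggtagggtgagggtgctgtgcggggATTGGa
Upstream start 3: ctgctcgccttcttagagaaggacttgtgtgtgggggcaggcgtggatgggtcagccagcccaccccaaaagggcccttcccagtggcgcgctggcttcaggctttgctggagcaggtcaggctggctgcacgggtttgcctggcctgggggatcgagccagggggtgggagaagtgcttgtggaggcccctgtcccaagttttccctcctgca
The 300 bases at the internal start held ATTGG 6 times, always on the strand that reads like the transcript. The 214 bases upstream of start 3 held neither ATTGG nor its reverse complement CCAAT. These are unlike windows, downstream of 1 start and upstream of the other, and the 502 bp peak over start 3 held 3 copies in all.

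Over the whole 502 bp internal peak, chr2:165861580-165862081, ATTGG occurred 7 times and CCAAT not at all. The copies began 4, 56, 107, 158, 227, 296 and 366 bp downstream of the start, so that neighbours were 51 to 52 bp apart at first and 69 to 70 bp apart afterwards. The units between neighbouring copies resembled each other to different degrees. Units 4 and 5, each of 69 bases, were identical at 63 of 69 positions (91.3%), and over all pairs of the 6 units, compared without gaps over the shorter one, the median identity was 49.0%.

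Counting both strands, 46 of 91285 peaks with reference sequence (0.0504%) held at least 7 copies, 46.8% held at least 1, and the highest number in any peak was 10. The search for ATTGG was added after the sequence had been seen, and the copy number is a description of these letters. ATTGG is the reverse complement of CCAAT, the core of the CCAAT box. The internal peak was also rich in CG dinucleotides: it held 25, against 5 to 18 in the other 11 promoter peaks of the gene and a median of 9 over all peaks. Its GC content was 56.0%, within the range of 47.4% to 57.2% of the other promoter peaks, and the median over all peaks was 51.0%. Of the 473 windows of 30 bases in the peak, 401 (84.8%) occurred once in the genome and none occurred more than 3 times.

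None of the 10 motifs searched on both strands was found in the internal peak. Over all peaks, ATGCAAAT occurred in 3.21%, AACAAT in 18.2%, TCAAGGTCA in 1.42%, GGGCGTGG in 5.24% and TGANTCA in 25.2%. GGAATG occurred in 31.7%, TGTGGT in 31.8%, TATAAA in 18.0%, CCGGAAG in 6.91% and AAGATGGCG in 1.15%. Among the other starts, the peak over start 3 held 1 copy of AACAAT, 1 of TATAAA and 3 of ATTGG. The peak nearest start 2 held CCGGAAG and 1 copy of ATTGG, and the peak over start 4 held 1 copy of TGANTCA, 1 of TGTGGT and 2 of ATTGG.

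At the internal start itself, chromatin was weakly accessible in MEFs and among the most accessible sites of the genome in mESCs. On BGI, the MEF libraries gave 3.69, 4.57 and 4.18 CPM, and the mESC libraries gave 129, 122 and 121 CPM. The means were 4.15 ± 0.44 and 123.9 ± 4.85 CPM (SD, n = 3), a log2 fold change of 4.83 ± 0.11 (SE). The groups lay far apart, with every mESC library above every MEF library. In these bulk samples, a site open in fewer cells and a site less open in each cell cannot be told apart.

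On Illumina, the peak kept for this start was chr2:165861599-165862100, and the MEF libraries gave 2.57, 3.58 and 2.66 CPM. The mESC libraries gave 121, 104 and 99.1 CPM, for means of 2.93 ± 0.56 and 107.9 ± 11.2 CPM (SD, n = 3) and a log2 fold change of 5.16 ± 0.13 (SE). The mESC spread was wider here than on BGI, with library 1 the highest on both platforms. By mean mESC CPM the internal peak ranked 48 of 91354 peaks on BGI and 81 of 87027 on Illumina, whereas by mean MEF CPM it ranked 62658 and 62932. Its log2 fold change ranked 2370 on BGI and 1850 on Illumina, so that its level in mESCs stood out more than its change.

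**Figure D1:**
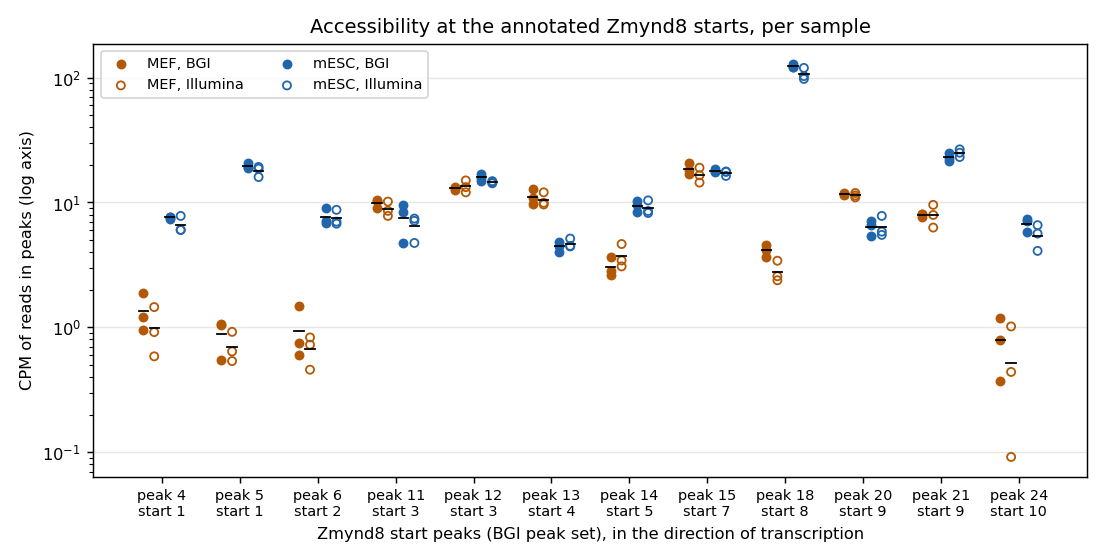
CPM on a log axis at the 12 promoter peaks of the BGI set, in the direction of transcription, with filled points for the BGI samples, open points for the Illumina samples counted in the same peaks, and a bar at each group mean. At the internal start 8 the mESC points sit between 97.7 and 129 CPM and the MEF points between 2.38 and 4.57 CPM, whereas at starts 3 and 7 the cell types lie close together.

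The internal start thus took a different share of the accessibility at Zmynd8 starts in the 2 cell types. Of the CPM summed over all promoter peaks of the gene, it held 4.98% ± 0.64 in MEFs and 49.5% ± 1.26 in mESCs on BGI (SD, n = 3). On Illumina the shares were 3.26% ± 0.60 and 44.8% ± 1.67. The other promoter peaks together also differed between the cell types, by less: on BGI they summed to 79.4 ± 2.83 CPM in MEFs and 126.3 ± 4.31 CPM in mESCs, and on Illumina to 87.2 ± 3.61 and 132.7 ± 4.92 CPM.

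The peak calls made by MACS2 in each sample alone are a second readout of the same reads. The internal start was covered by a called peak in 6 of 6 MEF samples and 6 of 6 mESC samples. Fold enrichment of the summit over the genome-wide background ranged from 3.16 to 6.98 in the MEF samples and from 109 to 151 in the mESC samples, and the ranges of -log10 p were 4.63 to 17.8 and 645 to 969. The summit lay 59 to 133 bp downstream of the start in MEFs and 155 to 175 bp downstream in mESCs, and the called interval was 588 to 819 bp wide in MEFs against 1573 to 2518 bp in mESCs. The MEF calls were weak, and the internal peak was on neither list of reproducible MEF peaks. Within the window of gene and flanks, the strongest call of all 6 mESC samples was the one at the internal start. The highest -log10 p in the window was 189 to 213 in the MEF samples. Called summits in the window numbered 51 to 60 of 216566 to 230117 per MEF sample, and 125 to 149 of 229198 to 276268 per mESC sample.

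**Figure D2:**
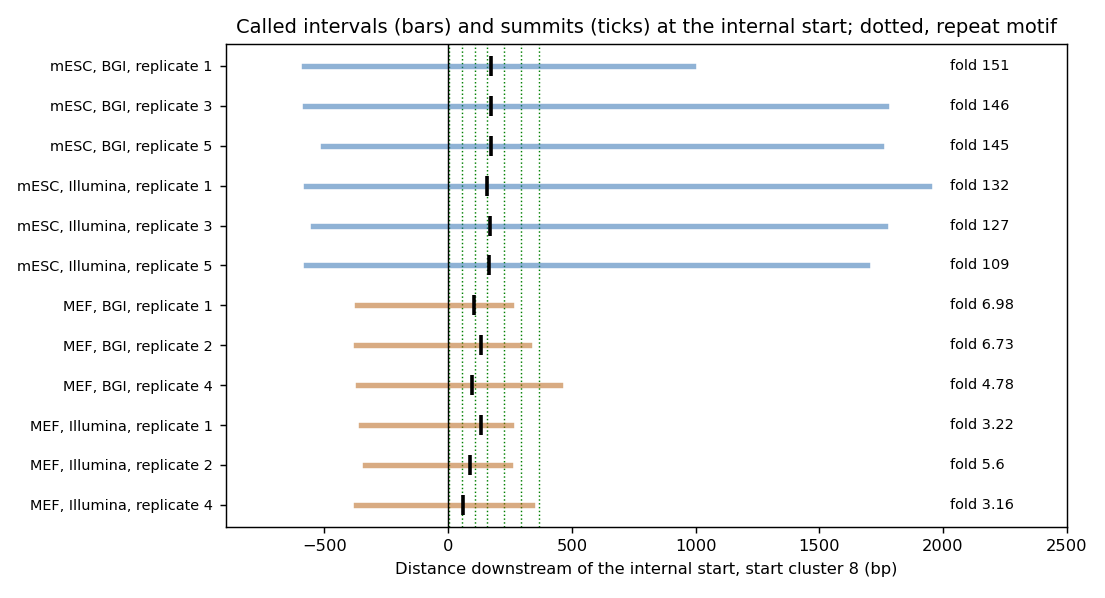
Peaks called by MACS2 at the internal Zmynd8 start in each of the 12 samples, as bars from the ends of the called interval and a tick at the summit, against the distance downstream of the start in bp, with the fold enrichment at the right and dotted lines at the ATTGG copies. All 6 mESC intervals are wider than all 6 MEF intervals, and the mESC summits cluster 155 to 175 bp downstream of the start.

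The peaks over or nearest the starts at the 5′ end of the gene were also more accessible in mESCs, at a much lower level. The peak over start 1, chr2:165898762-165899263, gave 1.06, 0.547 and 1.05 CPM in MEFs and 19.4, 18.8 and 20.9 CPM in mESCs on BGI, a log2 fold change of 4.39 ± 0.22 (4.63 ± 0.22 on Illumina). The peak nearest start 2, chr2:165896185-165896686, gave 1.48, 0.596 and 0.747 CPM in MEFs and 8.95, 7.10 and 6.83 CPM in mESCs, a log2 fold change of 2.93 ± 0.32 (3.36 ± 0.28 on Illumina). At both peaks, every mESC library lay above every MEF library. The peak nearest start 2 does not cover it but lies 264 bp away. Its mESC summits lay 514 to 579 bp downstream of start 2. The 4 promoter peaks of starts 1, 2 and 10 on BGI were called in 0 of 6 MEF samples and in 6 of 6 mESC samples. For the peak over start 1 the mESC summits lay within 19 bp of the annotated base, whereas the peak of start 10 lies 772 bp from that start. The levels in MEFs were near 1 CPM, which stood for 20.1 to 21.7 reads in a MEF library.

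Of the starts that lie between, start 5 was also higher in mESCs. Start 3 had 2 promoter peaks with log2 fold changes of opposite sign, start 7 had overlapping groups and start 4 was lower. The peak of start 5, chr2:165880313-165880814, gave 2.82, 2.63 and 3.63 CPM in MEFs and 8.45, 9.46 and 10.2 CPM in mESCs, a log2 fold change of 1.57 ± 0.21 (1.26 ± 0.20 on Illumina). The peak over start 3, chr2:165884531-165885032, gave 13.2, 13.3 and 12.7 CPM in MEFs and 14.8, 15.7 and 17.0 CPM in mESCs on BGI, a log2 fold change of 0.21 ± 0.13 (0.06 ± 0.13 on Illumina). The 3 mESC libraries lay above the 3 MEF libraries on BGI, and with scaling to the down-sampled depth the value was 0.35 on BGI. The other promoter peak of start 3, chr2:165885490-165885991, averaged 9.90 ± 0.78 CPM in MEFs and 7.56 ± 2.51 CPM in mESCs, a log2 fold change of -0.46 ± 0.21 (-0.53 ± 0.20 on Illumina). At this peak every MEF library lay above every mESC library on Illumina, and the groups overlapped on BGI. At start 7 the peak chr2:165874737-165875238 averaged 18.7 ± 1.92 CPM in MEFs and 17.9 ± 0.45 CPM in mESCs (SD, n = 3), with overlapping groups. That peak lies 539 bp from the nearest annotated start, which belongs to a transcript with an incomplete 5′ end, and its summits lay 780 to 803 bp downstream. Of the 12 BGI promoter peaks, 8 cover a start or lie within 500 bp of one and 4 lie further off, up to the 1 kb limit. Start 4 went the other way. Its peak, chr2:165881909-165882410, gave 12.8, 10.9 and 9.66 CPM in MEFs and 4.85, 4.49 and 4.04 CPM in mESCs, a log2 fold change of -1.39 ± 0.19 (-1.15 ± 0.17 on Illumina). Start 4 has coding transcripts of the basic set, as start 3 does.

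The coding start 9, 3832 bp downstream of the internal start, had promoter peaks that differed in opposite directions. The peak just downstream of it, chr2:165857575-165858076, gave 8.08, 7.60 and 8.12 CPM in MEFs and 22.9, 24.8 and 21.4 CPM in mESCs on BGI, a log2 fold change of 1.47 ± 0.13. The peak upstream of it begins at 165859051 and lies 878 bp from start 9. It averaged 11.6 ± 0.19 CPM in MEFs and 6.36 ± 0.88 CPM in mESCs, a log2 fold change of -0.94 ± 0.17. On Illumina a further peak was kept directly over the start, chr2:165857957-165858458, with 12.1 CPM in MEFs, 15.6 CPM in mESCs and a log2 fold change of 0.31 ± 0.13, and the one downstream of it had 1.83 ± 0.14. The antisense gene BC046401 starts at 165857684, inside the downstream peak on both platforms. Gm11465 starts at 165880025, 288 bp from the BGI peak of start 5. ATAC-seq carries no strand, so accessibility at these peaks cannot be assigned to Zmynd8 or to the antisense gene.

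Ordered by mean CPM, the starts ranked differently in the 2 cell types. In MEFs on BGI the order began with start 7 (18.7 CPM) and start 3 (13.1 CPM), each with all libraries above those of the next peak. Next came the upstream peak of start 9 (11.6 CPM) and the peak of start 4 (11.1 CPM), whose libraries overlapped, and the internal start was 7th of 12. On Illumina the MEF libraries of start 7 overlapped those of start 3, and those of start 3 overlapped the next peak, and the internal start was 9th of 12. In mESCs the internal start was first, at 5.37 times the mean of the next peak on BGI and 4.12 times on Illumina. It was followed on BGI by the downstream peak of start 9 (23.1 CPM), the peak over start 1 (19.7 CPM), start 7 (17.9 CPM) and start 3 (15.9 CPM), each above the next in all 3 libraries. From start 5 (9.39 CPM) down to the peak of start 10 (6.75 CPM), neighbours in the order overlapped. On Illumina the start 1 and start 7 peaks of the mESCs overlapped as well.

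The mESC against MEF values were also taken over the whole locus. On BGI, 33 of 45 were higher and 7 lower at an adjusted p under 0.05 in edgeR's quasi-likelihood test over the full peak set, where 40.9% of all 91354 peaks were higher and 43.2% lower. On Illumina, 33 of 44 were higher and 7 lower, where 42.1% of all 87027 peaks were higher and 42.4% lower. Because the locus was chosen on this contrast, nothing is read from these counts. All 45 and all 44 peaks passed the filter on low counts. The median log2 fold change was 1.57 at the locus against -0.08 over all peaks on BGI, and 1.92 against -0.03 on Illumina. A log2 fold change of at least 3 was seen at 11 BGI peaks of the locus and at 15.3% of the whole set.

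By position, the counts were as follows, and nothing is read from them. A peak entered a platform's set through the reproducible peaks of either cell type. Of the BGI peaks of the locus, 24 were on mESC lists only, and all 24 were called higher in mESCs. Another 5 were on MEF lists only. Over all BGI peaks, 40.9% were higher and 43.2% lower. Inside the gene downstream of the last start, 17 of 18 BGI peaks were higher in mESCs and 1 was lower, with a median log2 fold change of 2.71. Between starts 1 and 10, 11 of 20 were higher, 5 lower and 4 passed in neither direction, with a median of 0.70. On Illumina the corresponding counts were 21 of 21 higher downstream and 8 higher and 6 lower of 17 between the starts, with medians of 2.87 and 0.06.

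Only 1 intronic peak had a larger difference than the internal start on BGI, but not on Illumina. It lies at chr2:165809919-165810420, with 0.831, 1.04 and 1.59 CPM in MEFs and 48.9, 43.3 and 49.0 CPM in mESCs, a log2 fold change of 5.28 ± 0.17 (5.04 ± 0.22 on Illumina). The peak chr2:165831649-165832150 averaged 5.58 CPM in MEFs and 40.9 CPM in mESCs, a log2 fold change of 2.80 ± 0.14. These were the highest mESC levels of the locus after the internal start. A few intronic peaks were higher in MEFs. The one with the highest MEF level was chr2:165855544-165856045, between starts 9 and 10, with 31.0, 27.9 and 20.2 CPM in MEFs and 7.88, 7.92 and 8.01 CPM in mESCs, a log2 fold change of -1.80 ± 0.16. The most negative value was -2.62 ± 0.28 at the BGI peak starting at 165841609, which averaged 6.15 CPM in MEFs and 1.04 CPM in mESCs.

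**Figure D3:**
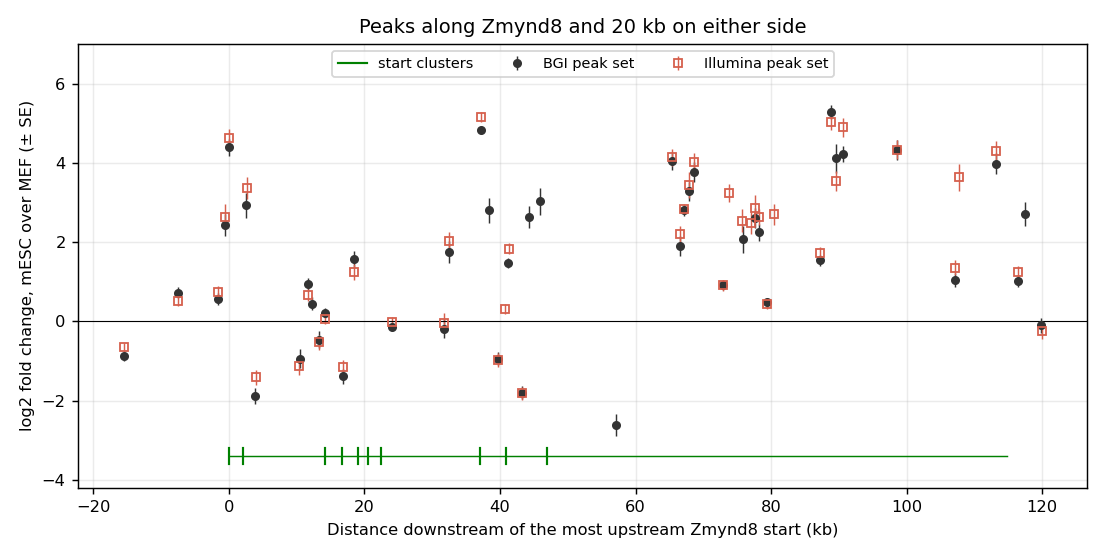
The log2 fold change (mESC over MEF) of every peak in the window, on the BGI set (filled) and the Illumina set (open), against the distance of its centre from the most upstream Zmynd8 start in kb, with the starts as ticks on the gene line; bars are standard errors. Apart from 1 BGI peak, those downstream of the last start and inside the gene lie above 0, and those between the starts lie on both sides of 0.

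Just inside and just outside the window edges, the differences varied in size and direction. The last BGI peak inside on the downstream side, chr2:165778847-165779348, had a log2 fold change of -0.10 ± 0.18, and the next peak outside, 15244 bp beyond the edge, had -2.15 ± 0.24. On the upstream side the outermost member had -0.88 ± 0.11, and the next peak outside, 3239 bp beyond the edge, had 4.11 ± 0.24.

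The internal promoter was compared with the promoter peaks of all other protein-coding genes for the likeness of their levels, as Euclidean distance of log2 CPM over the 6 BGI samples. Of 25889 promoter peaks, the nearest were those of Ftl1-ps1 on chromosome 13 (distance 1.30), Ppp2r3d on chromosome 9 (1.31), Ano8 on chromosome 8 (1.43), Mymx on chromosome 17 (2.28) and Shroom3 on chromosome 5 (2.29), against a median distance of 6.69. In the 6 Illumina samples, which are the same libraries, these genes held ranks 1 to 5 in the same order, at distances of 1.05 to 1.88. The Ftl1-ps1 peak averaged 2.75 ± 0.50 CPM in MEFs and 92.4 ± 1.99 CPM in mESCs, and the Shroom3 peak 2.67 ± 0.66 and 56.2 ± 1.95 CPM. Each of the 5 had a lower mESC mean than the internal start.

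Zmynd8 had more promoter peaks than most genes. With 12 on BGI it ranked 4 among 6992 protein-coding genes with at least 2, whose median was 2 and maximum 19. The highest and lowest log2 fold changes among its promoter peaks were 6.22 apart, and 6.30 apart on Illumina. The highest of them is the internal promoter for which the locus was chosen, so this spread is a description and is not ranked. A gene with 1 promoter peak at 1 or above and another at -1 or below, as Zmynd8 has, was found in 439 of the 6992 genes (6.28%) on BGI and in 398 (5.76%) on Illumina. That share is over genes with a median of 2 promoter peaks, against 12 for Zmynd8. It is thus not a like background for the pattern, and nothing is read from it.

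The platform comparison did not enter the choice of the locus and was tested. The tests below set BGI against Illumina within a cell type. As a description, 39 BGI peaks overlapped an Illumina peak of the locus by at least 50%, and the mESC against MEF log2 fold changes of these matched peaks, from the same 6 libraries, differed by a median of 0.23 and by at most 0.68.

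In MEFs, the 22 locus peaks of the MEF peak set differed between BGI and Illumina by -0.21 to 0.31 on the log2 scale, with a median of 0.10. None was called by edgeR's quasi-likelihood test with Benjamini-Hochberg adjustment (lowest adjusted p = 0.152), 1 had an unadjusted p under 0.05, and DESeq2 called 0. Over the whole MEF set 4.06% of peaks were called, 2448 of 2514 lower on BGI, and 9398 of 61891 had an unadjusted p under 0.05 in edgeR. In mESCs, the 46 locus peaks of the mESC peak set differed by -0.40 to 0.27, with a median of 0.02. None was called (lowest adjusted p = 0.408 in the same edgeR test), 0 had an unadjusted p under 0.05 and DESeq2 called 0. Over the whole mESC set 3.23% of peaks were called, 2136 of 2164 lower on BGI, and 8756 of 67063 had an unadjusted p under 0.05 in edgeR.

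With the library as a block, each library was compared with itself, and this fit called 3 of the 22 MEF peaks and 4 of the 46 mESC peaks, where 29.2% of all MEF peaks and 21.3% of all mESC peaks were called. The MEF peaks were all higher on BGI, by 0.21 to 0.32 on the log2 scale. In mESCs the internal start was among them. In the mESC peak set, chr2:165861580-165862100, it gave 132, 124 and 123 CPM on BGI and 122, 104 and 99.3 CPM on Illumina, higher on BGI in 3 of 3 libraries. The log2 difference was 0.17 ± 0.10 with an adjusted p of 0.53 without the block, and 0.17 ± 0.03 with an adjusted p of 3.2e-06 with it, both in edgeR's quasi-likelihood test with Benjamini-Hochberg adjustment. Over 7 alternatives the difference was 0.13 to 0.22 and the adjusted p from edgeR or DESeq2 ranged from 3.2e-06 to 1.0, the lowest without the block being 0.352. The intronic peak starting at 165809919 was also higher on BGI with the block, by 0.14, and the peaks starting at 165866256 and 165832202 were lower, by -0.40 and -0.31.

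**Figure D4:**
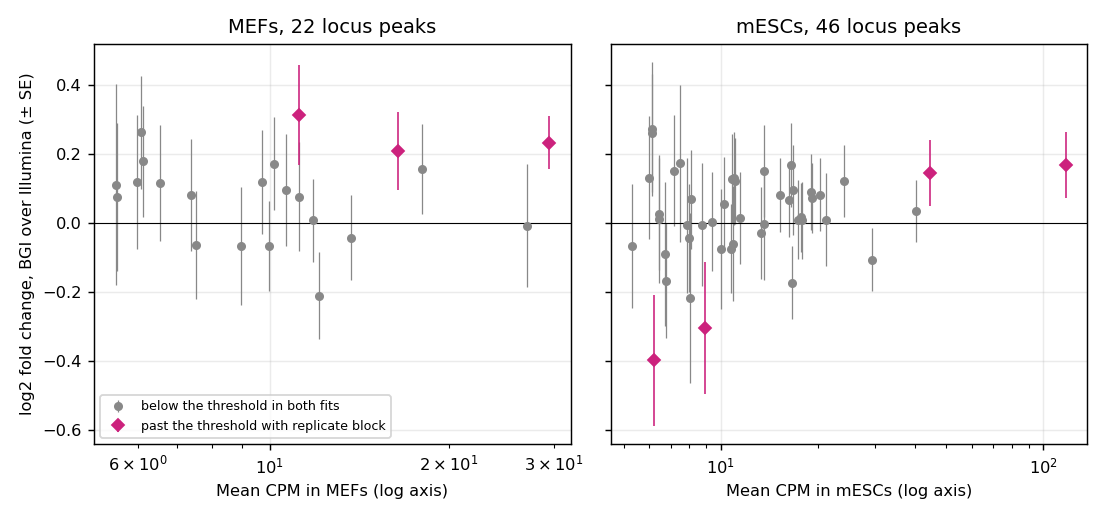
The log2 difference BGI over Illumina of each Zmynd8 locus peak against its mean CPM (log axis), in MEFs and in mESCs, from the fit without the library block; bars are standard errors, and diamonds mark the peaks called with the block. The values lie between -0.40 and 0.31, with 16 of 22 MEF peaks and 30 of 46 mESC peaks above 0 and the internal start, the most accessible mESC peak, at 0.17.

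Whether the mESC against MEF difference depended on the platform was tested as an interaction. For the 45 BGI peaks the platform-by-cell-type term was -0.61 to 0.81 on the log2 scale, and 0 were called by edgeR's quasi-likelihood test, with 0 at an unadjusted p under 0.05 and 0 in DESeq2. Over the whole set 0.0% were called, with 2386 of 91354 at an unadjusted p under 0.05. The standard errors of this term at the locus were 0.13 to 0.63, with a median of 0.31, so that differences of that size could not be resolved. At the internal start the interaction was -0.24 ± 0.18 (BGI minus Illumina, SE) with an adjusted p of 1.0 in edgeR's quasi-likelihood test. Over 10 alternatives it lay between -0.36 and -0.18, with adjusted p from 0.473 to 1.0. In none of them was the difference between the cell types larger on BGI.

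The promoters of genes whose products are known to act with ZMYND8 were more often lower than higher in mESCs, as were those of all protein-coding genes, by a margin that depended on the scaling. Of 27 such genes, each taken by its strongest promoter peak, 2 were higher and 13 lower in mESCs on BGI, where 22.1% of 15126 protein-coding genes were higher and 44.1% lower. On Illumina 2 were higher and 12 lower, where 22.5% of 15182 were higher and 45.8% lower. The medians were -0.20 on BGI and -0.19 on Illumina, and -0.18 over all genes on both. With scaling to the down-sampled depth in place of the trimmed mean of M values, 3 were higher and 8 lower on BGI, 2 were higher and 7 lower on Illumina, and the shares of all genes were 27.6% higher and 29.9% lower on BGI and 27.7% higher and 33.0% lower on Illumina.

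The partner with the largest difference was Mta3, a subunit of NuRD. Its promoter peak at chr17:83728937-83729438 averaged 0.342 ± 0.097 CPM in MEFs and 29.8 ± 2.4 CPM in mESCs (SD, n = 3), a log2 fold change of 6.36 ± 0.21 on BGI and 6.22 ± 0.21 on Illumina. Its paralog Mta1 was lower, with 13.7 CPM in MEFs, 6.67 CPM in mESCs and a log2 fold change of -1.11 ± 0.15 on BGI and -1.04 ± 0.11 on Illumina. The other partner that was higher was Zfp532, which encodes a zinc finger protein related to ZNF687 and ZNF592, with 26.5 ± 2.25 CPM in MEFs, 51.5 ± 5.36 CPM in mESCs and a log2 fold change of 0.89 ± 0.11. Kdm5c, a demethylase of histone H3, had -0.91 ± 0.14 and Chd4, the remodelling ATPase of NuRD, had -0.74 ± 0.15 on BGI. These 5 kept their direction and their call on Illumina.

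Chd3, another NuRD ATPase, depended on which peak was taken. It was named after its values were seen. Its strongest promoter peak had a log2 fold change of -2.37 ± 0.25 on BGI and -0.24 ± 0.16 on Illumina, and these were different peaks, starting at 69362470 and 69368684 on chromosome 11.

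**Figure D5:**
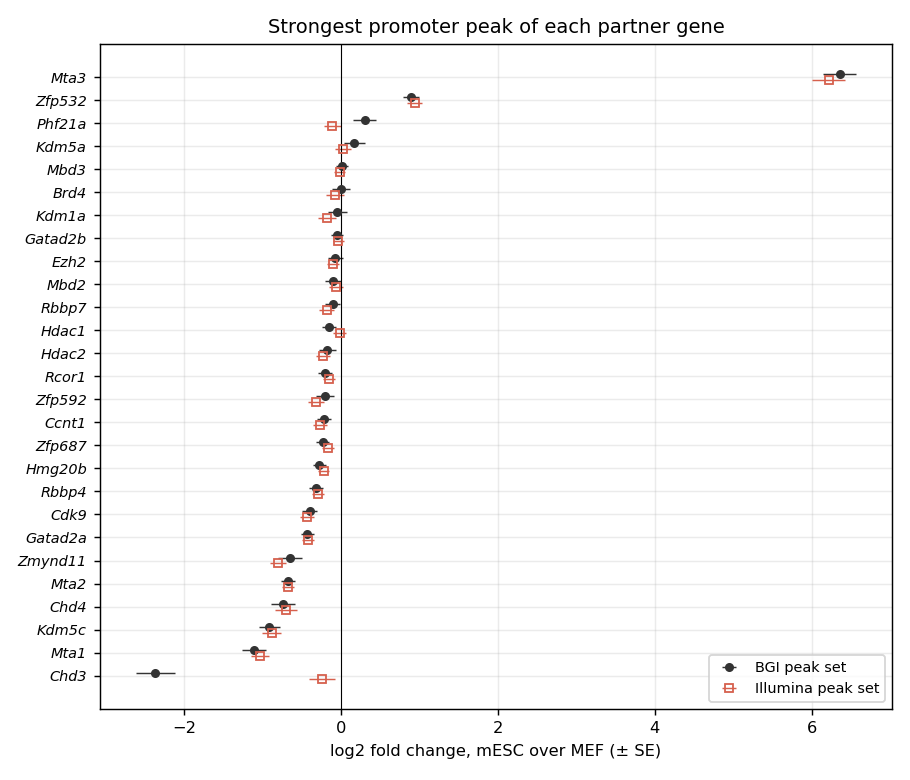
The log2 fold change (mESC over MEF) of the strongest promoter peak of each of 27 genes whose products act with ZMYND8, on BGI (filled) and Illumina (open); bars are standard errors. Mta3 lies at 6.36 on BGI, and apart from Mta3 and Chd3 the BGI values lie between -1.11 and 0.89.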

How the data were processed

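Per the study's methods, reads (Illumina trimmed to 100 bp) were aligned to GRCm38.p6/mm10 with Bowtie2, freed of duplicates and mitochondrial reads and down-sampled to 60 M (MEF) and 45 M (mESC) reads per sample. The authors called peaks per sample with MACS2 (p of 0.01), fixed their width around summits, and kept those with a depth-normalised score of at least 3 in at least 2 samples. The deposited count tables hold raw read counts per peak and sample, without normalization. The deposited peak calls give fold enrichment as a ratio and p as -log10 p-value for each summit.

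Depth was the reads in a sample's peak set, from 15.9 M to 21.7 M on the set of its own platform, 19.6 M to 21.5 M for MEFs on the MEF set and 15.7 M to 17.1 M for mESCs on the mESC set, and CPM used that total. Counts were tested with the two-sided quasi-likelihood test of edgeR 4.0.16 (R 4.3.3; TMM scaling, default filter on low counts, Benjamini-Hochberg adjustment over all peaks, threshold 0.05). DESeq2 1.42.0 was an alternative. Other alternatives were DESeq2 size factors, library sizes at the down-sampled depth, no filter, the other platform's samples, a log2 fold change of at least 1, each library left out, promoter windows of 500 bp and 2 kb, and the library block. Fits were tested on simulated data. Promoter peaks lay within 1 kb of a GENCODE M21 start. Groups came from the sample titles. The replicates were separate biological samples per the study's methods. Every per-sample column was used.

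Named items were every peak overlapping the gene extended by 20 kb, the nearest peak beyond each edge, the 5 promoter peaks most like the internal one, and up to 3 partner genes per direction with the largest change among those called on both platforms. Members, gene lists and tests were chosen with earlier results of these data known. Library numbers pair the platforms, since both read the same 6 libraries: after removal of group means, samples of 1 library correlated at 0.618 to 0.837 (MEFs) and 0.514 to 0.722 (mESCs), but those of different libraries at -0.676 to 0.298 and -0.509 to -0.115.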

Additional observations from a re-analysis of the deposited data

How the results depend on the processing

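Over 979 combinations of peak and alternative, the mESC against MEF values of the locus changed sign in 9, at 5 peaks with log2 fold changes of at most 0.13 in size, none of them past the threshold. Of the 979, 963 moved by less than the spread between replicates and 16 by more, 13 of them with the other platform's samples and 3 without MEF replicate 2. The internal start had a log2 fold change of 4.80 to 5.20 on the BGI peak set and 4.78 to 5.28 on the Illumina peak set. Both ranges include the alternative with the other platform's samples, so they are not ranges of 1 platform each. Peaks of the locus called numbered 40 on each platform and 38 to 41 under the alternatives, apart from 31 on each when a log2 fold change of at least 1 was required. Fixed library sizes moved the median of all peaks to 0.06 on BGI (from -0.08) and to 0.09 on Illumina (from -0.03). Partner promoters lower in mESCs numbered 9 to 14 on BGI and 10 to 18 on Illumina when 1 library was left out. No paired analysis was possible in this contrast, because the MEF and mESC libraries were separate biological samples and nothing pairs them.

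The platform contrasts depended on the pairing. With the library block, 18075 peaks were called in MEFs in place of 2514, 14304 in mESCs in place of 2164, and 353 for the interaction in place of 0. At the locus the block called 3 peaks in MEFs, 4 in mESCs and 0 for the interaction, in place of 0. DESeq2 called 5914 peaks in MEFs. Leaving out 1 library gave 0 to 6132 calls in MEFs (0 without replicate 1, 0 without replicate 2 and 6132 without replicate 4) and 0 to 1373 in mESCs (1 without replicate 1, 1373 without replicate 3 and 0 without replicate 5), and the cause was not tested. With 3 libraries per cell type, small platform differences at single peaks could not be resolved without the block, and levels near 1 CPM rest on 15.9 to 21.7 reads.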

Other observations

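The internal start was not in the MEF peak set, so its platform difference in MEFs was not tested. Counted on the mESC peak set, where these samples held 14.5 M to 16.3 M reads in peaks and CPM has another total than on the platform sets, the MEF libraries 1, 2 and 4 gave 5.49, 6.34 and 5.84 CPM on BGI and 3.38, 4.74 and 3.52 CPM on Illumina, higher on BGI in 3 of 3 libraries.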
